A study of Mus musculus with 121 samples.

Results

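Mono and Gran-1 are the names that the authors gave to a pair of cell states among granulocyte-monocyte progenitors (GMP) of mouse bone marrow. They were compared gene by gene within 1 run of cells, which removes the run as a difference between them. The cells were those of the run named R412X-GMP in the labels whose deposited state name was Mono (32 cells) or Gran-1 (9 cells). These 41 cells are part of 62 cells of that run and of 121 cells in all. All of them came from C57BL/6 mice whose genotype the labels write as Gfi1-R412X/- and, elsewhere, as HTZ, so Mono and Gran-1 cells carry the same Gfi1 mutation. Marrow of crushed hindlimbs was enriched with CD117 beads, sorted, and captured on the Fluidigm C1, a microfluidic device that lyses single cells, with SMARTer cDNA and Nextera XT libraries. The series asks how this neutropenia-linked mutation bears on the states that cells pass through while they become granulocytes. Cells with unmutated Gfi1 were not analysed here, and the labels state neither the age nor the number of the mice.

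A GMP can give rise to neutrophils or to monocytes. The transcription factor Irf8 promotes the monocyte and dendritic cell fate and restrains the neutrophil fate. Gfi1 is a zinc finger repressor that is needed for neutrophil formation and that keeps monocyte genes low, and mutations in its zinc fingers cause neutropenia in people. Neutrophil precursors fill successive sets of granules, first the primary granules with proteases and peroxidase, later the secondary and tertiary granules.

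Each sequenced sample is 1 cell and no label names an animal, so Mono is 1 sample and Gran-1 is 1 sample. No difference below carries a test, and every SD is the spread of single cells, not an error between mice. The authors gave the state names to these same cells, and the labels do not say which genes that rested on, so the differences are a description and no independent result. Values are log2(TPM + 1), where TPM is a transcript abundance scaled to the same total in every cell, and detection of a gene means a TPM of at least 1. Mono cells had a median of 4672 detected genes (1951 to 6153) and Gran-1 cells 4860 (4170 to 5487). The median share of TPM held by a cell's 20 most abundant genes was 16.2% in Mono and 17.4% in Gran-1. Cell numbers on the chip ran over 3 to 65 for Mono and 4 to 63 for Gran-1. Sequencing depth is unknown from TPM.

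Of 5 marker genes, 4 differed clearly between the states, in the direction that the names imply. The authors named these same cells, possibly from these genes, so this is no check of the names. Irf8 was detected in 32 of 32 Mono cells, with a lowest level of 2.94, a median of 7.73 and a highest of 9.83 on the log2(TPM + 1) scale, against 5 of 9 Gran-1 cells at 7.35, 6.77, 6.42, 5.76 and 3.48, with the other 4 at 0. The means were 7.53 ± 1.49 (SD, n = 32 cells) in Mono and 3.31 ± 3.31 (SD, n = 9 cells) in Gran-1, a difference of 4.22. The states overlapped: 21 Mono cells lay above every Gran-1 cell, and 4 Gran-1 cells lay below every Mono cell.

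Ctss, the lysosomal protease cathepsin S of antigen-presenting cells, had the largest difference towards Mono among the leading genes defined below, 6.47. It ran over 0, 7.82 and 10.67 (lowest, median, highest) in Mono, where 30 of 32 cells had it. Gran-1 cells had 3.61, 1.04 and 1.04, and 6 at 0. Ms4a6c, a membrane protein of the MS4A family that marks monocyte precursors, was detected in every cell of both states. Its level was 3.93, 9.15 and 10.93 in Mono, against 6.88, 6.77, 6.71, 5.94, 4.17, 3.95, 3.75, 2.29 and 2.26 in Gran-1, a difference of 3.77. Here the states differed in level and not in presence, and 27 of 32 Mono cells exceeded every Gran-1 cell. Reads of Ms4a6c may be shared with relatives such as Ms4a6b, which was not tested, so both values are uncertain.

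Gfi1 pointed the other way. In Mono it ran over 0, 3.84 and 9.20 and was detected in 24 of 32 cells, while the 9 Gran-1 cells had 9.56, 9.34, 8.34, 8.29, 8.25, 8.23, 8.18, 8.15 and 7.11. The difference of the means was −4.35 (4.04 ± 3.31 in Mono, SD, n = 32 cells, and 8.38 ± 0.71 in Gran-1, SD, n = 9 cells). Gran-1 cells were thus narrow in Gfi1 and Mono cells wide, with 21 Mono cells below every Gran-1 cell. As a log2 ratio of mean TPM the difference was −1.97, just inside the limit of 2 used below. Summed levels of the gene cannot show the allele a transcript came from. Ctsg, the primary granule protease cathepsin G, did not separate the states: it was detected in every cell at 8.12, 11.41 and 12.69 in Mono and 11.18, 11.58 and 12.95 in Gran-1, a difference of −0.53.

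**Figure D1:**
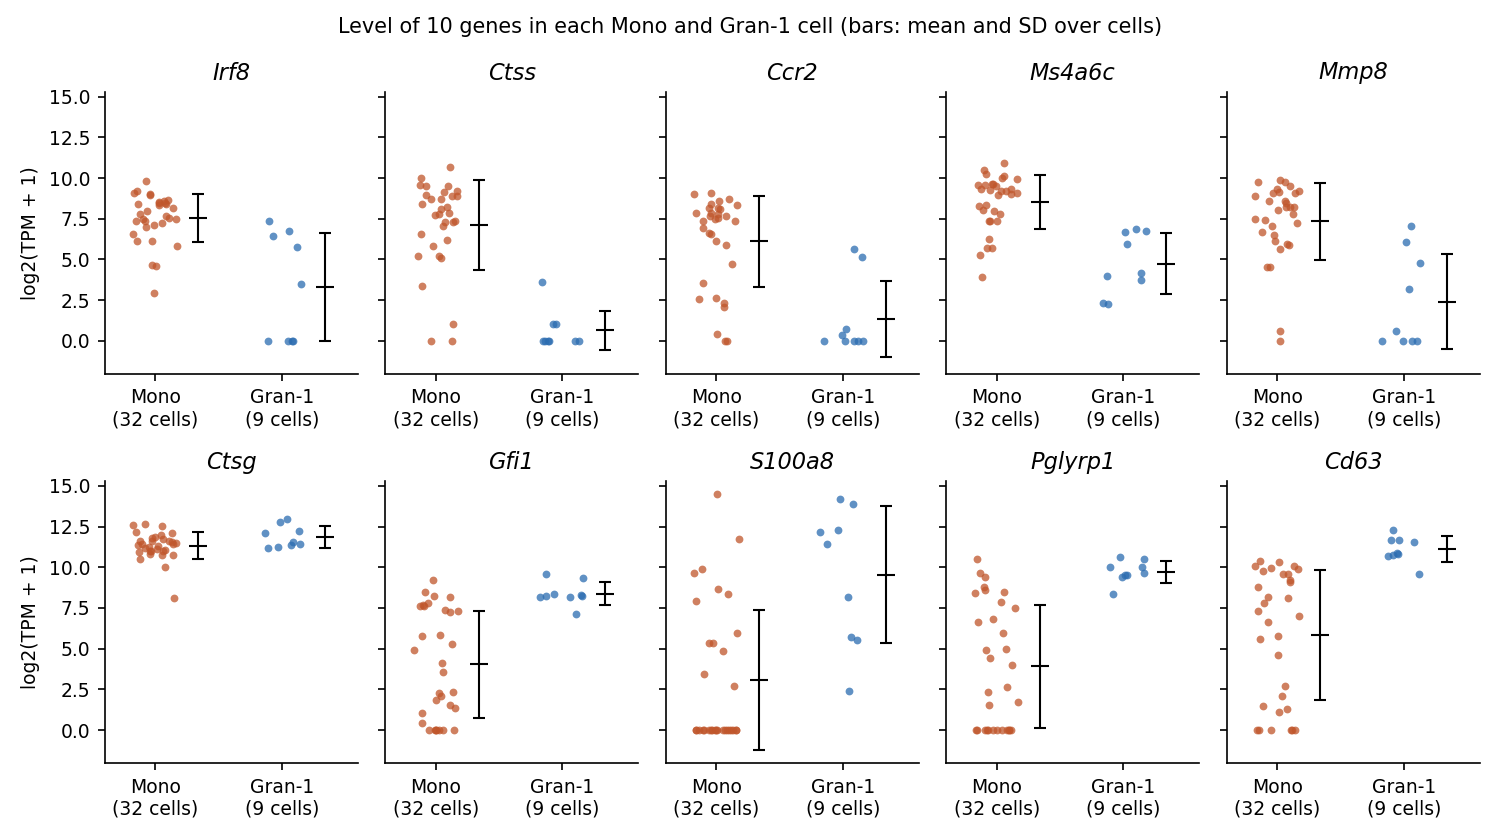
Each point is 1 cell, on the log2(TPM + 1) axis, with Mono (32 cells) left of Gran-1 (9 cells); bars give the mean and the SD over cells. Irf8, Ctss, Ccr2, Ms4a6c and Mmp8 were higher in Mono and Gfi1, S100a8, Pglyrp1 and Cd63 lower, while Ctsg differed by −0.53, and in every panel the states share part of their range.

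To show what such patterns look like in place, the 120 bases before the start of a pair of leading genes from each state were taken from RefSeq on GRCm38.p6; the authors' table uses mm9. The 4 windows were picked because they hold matches: of 16 genes whose windows were read, 10 had none, among them Irf8, Gfi1, Ctss, Ccr2 and S100a9. Capitals mark matches, on either strand, to TTNCNNAA (a C/EBP pattern), AAATCA (the core of a Gfi1 pattern) or GAGGAAG (a PU.1 pattern). Ms4a6c (chr19:11469248-11469367, plus strand) holds a Gfi1 core that shares a base with a C/EBP match. Mmp8 (chr9:7558309-7558428, plus strand) holds the same pair of patterns apart from each other. Pglyrp1 (chr7:18884570-18884689, plus strand) holds PU.1 matches on both strands. Cd63 (chr10:128909225-128909344, plus strand) holds a PU.1 match that overlaps a C/EBP match.
Ms4a6c: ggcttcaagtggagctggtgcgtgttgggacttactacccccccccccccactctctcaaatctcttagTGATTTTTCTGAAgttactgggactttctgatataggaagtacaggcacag
Mmp8: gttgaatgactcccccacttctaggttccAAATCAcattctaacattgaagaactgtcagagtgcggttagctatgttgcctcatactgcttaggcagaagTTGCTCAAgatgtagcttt
Pglyrp1: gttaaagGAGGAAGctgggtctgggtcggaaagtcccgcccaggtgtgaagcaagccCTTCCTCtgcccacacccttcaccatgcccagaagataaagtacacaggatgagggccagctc
Cd63: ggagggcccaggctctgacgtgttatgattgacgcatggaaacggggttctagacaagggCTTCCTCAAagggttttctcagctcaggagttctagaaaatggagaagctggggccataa
Over 250 bases before the start, the Gfi1 core was in 4 of the 17 leading Mono genes with a promoter in that table (23.5%) and in 0 of the 14 such Gran-1 genes, against 8.56% of all kept genes. The C/EBP pattern was in 6 of the 17 leading Mono genes and 7 of the 14 leading Gran-1 genes, against 32.9% of the kept genes, and the PU.1 pattern in 3 of the 17 and 4 of the 14, against 12.8% of the kept genes. Neither set held the ETS-IRF composite pattern, to which PU.1 binds together with Irf8, and 2.21% of the kept genes did. Over all called genes the Gfi1 core was in 7.87% of those higher in Mono and 8.17% of those lower, close to the 8.56% of the kept genes. A match is a run of letters and not a measured site.

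Across the 7546 genes kept (detected in at least 20% of cells, averaged over the 2 states), 102 were higher in Mono by 2 or more on the log2(TPM + 1) scale, 1.35% of the genes. A further 324 were lower by 2 or more, 4.29%. More genes lay on the Gran-1 side in general: the median difference was −0.18, with 3156 genes positive and 4390 negative. Of the called genes 23.9% were higher in Mono, but 64.4% were when log2 ratios of mean TPM replaced differences of mean logs, which put the median of all genes at 0.07. With Mono restricted to the 23 cells within the Gran-1 range of detected genes the share was 37.4%, and with 2 Gran-1 cells of the late July GMP runs added it was 33.9%. For none of the kept genes did every Mono cell lie above, or below, every Gran-1 cell.

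**Figure D2:**
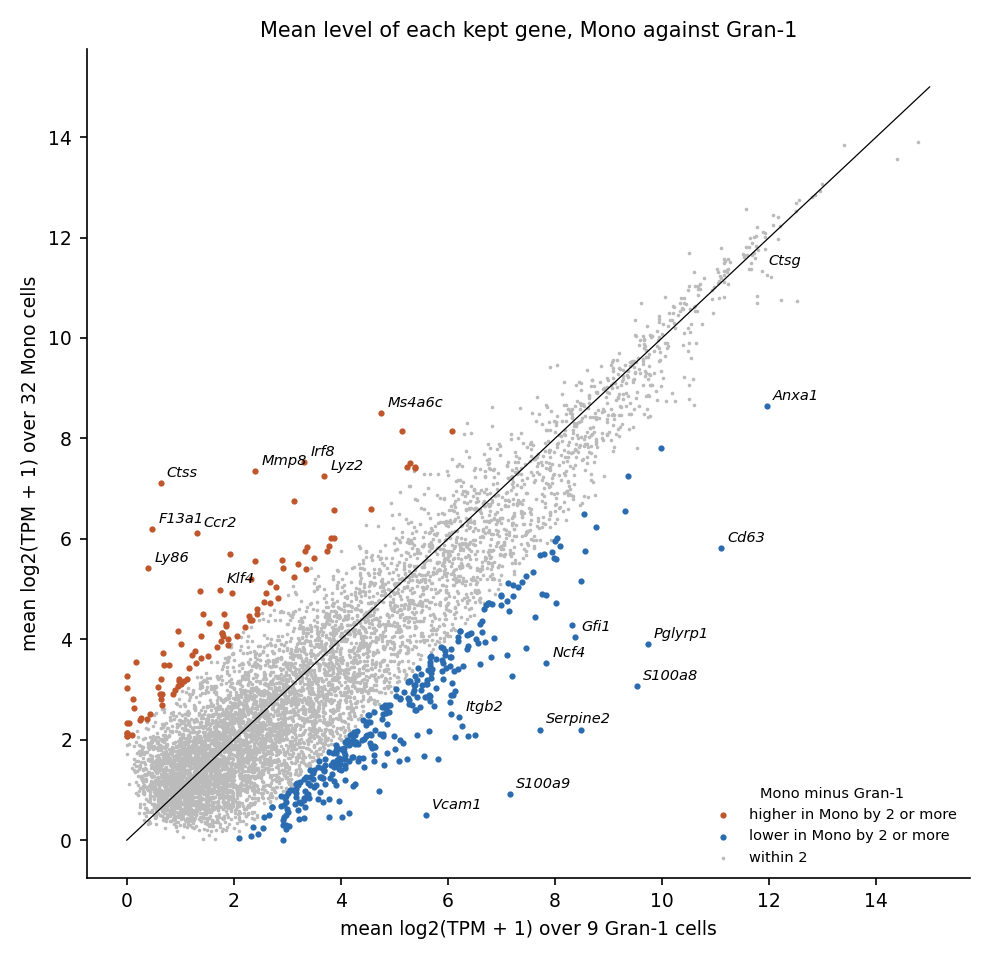
Each point is a kept gene, with its mean log2(TPM + 1) over 9 Gran-1 cells on the horizontal axis and over 32 Mono cells on the vertical axis. Genes above the line are higher in Mono; 102 differ by 2 or more in that direction and 324 in the other.

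The 20 leading genes of Mono, the largest differences among genes detected in at least 50% of its cells, included proteins of monocyte function. F13a1, the A chain of clotting factor XIII that monocytes and macrophages make, was detected in 28 of 32 Mono cells (median 7.07, highest 10.20) and in 1 of 9 Gran-1 cells at 3.79, a difference of 5.72. Ly86, also called MD-1, which partners the Toll-like receptor relative RP105, was detected in 24 of 32 Mono cells (median 5.80, highest 10.54), and the 3 Gran-1 cells with it had 1.32, 1.20 and 1.08. Its difference was 5.01. For both genes 23 Mono cells lay above every Gran-1 cell.

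Ccr2, the chemokine receptor that takes monocytes out of the marrow, was detected in 29 of 32 Mono cells (median 7.43, highest 9.11) and in 2 of 9 Gran-1 cells, at 5.66 and 5.16. Its difference was 4.79. Klf4, a zinc finger factor needed for monocyte formation, was detected in 27 of 32 Mono cells (median 5.62) and in 4 of 9 Gran-1 cells at 4.93, 4.01, 3.96 and 2.78, a difference of 3.25. Pld4, an endolysosomal nuclease, differed by 3.76, and S100a10, the light chain of the annexin A2 complex, by 3.63. In S100a10 the states overlapped widely, since 1 Gran-1 cell reached 9.06.

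Among the leading Mono genes, Ms4a6b, Pyhin1 and Lat2 were detected in 0 of 9 Gran-1 cells, a count that leaves room for 33.3% of such cells. In Mono they were detected in 19, 19 and 16 of 32 cells. Lat2 encodes an adaptor of immune receptor signalling, and Pyhin1 a member of the interferon-inducible PYHIN family. Of the 102 genes higher in Mono, 11 were in no Gran-1 cell, and 6 were in every Mono cell. Itpripl1 was one of those detected in 32 of 32 Mono cells, with 8.14 ± 1.63 (SD, n = 32 cells), against 5.14 ± 3.77 in Gran-1 (SD, n = 9 cells). The shares of all kept genes in no Gran-1 cell or in every Mono cell are not given here. Uncalled genes such as Actb were also in every Mono cell, so these counts do not set the called genes apart.

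The 20 leading genes of Gran-1 were led by alarmins and antimicrobial proteins of the neutrophil line. S100a8, a subunit of calprotectin, was detected in 13 of 32 Mono cells (median 0, highest 14.5) and in 9 of 9 Gran-1 cells, at 14.17, 13.86, 12.32, 12.18, 11.44, 8.18, 5.69, 5.54 and 2.42. The difference was −6.46, although the highest value of all was that of a Mono cell. S100a9, the partner subunit and a neighbour of S100a8 on chromosome 3, was detected in 6 of 32 Mono cells and in 7 of 9 Gran-1 cells, at 13.97, 10.60, 10.12, 9.43, 8.82, 6.13 and 5.32. It differed by −6.24.

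Pglyrp1, a peptidoglycan recognition protein of neutrophil granules, was detected in 20 of 32 Mono cells (median 3.30, highest 10.51) and lay between 8.35 and 10.65 in all 9 Gran-1 cells, a difference of −5.82. The gene listed as 1100001G20Rik, now named Wfdc21, was detected in 10 of 32 Mono cells (highest 10.25) and lay between 6.31 and 10.64 in Gran-1, a difference of −6.28. For both, 25 of 32 Mono cells lay below every Gran-1 cell. Serpine2, a secreted protease inhibitor, ran over 0, 1.08 and 8.46 in Mono and over 5.72, 8.13 and 9.19 in Gran-1, a difference of −5.53. It was thus present in every Gran-1 cell, as were 88 of the 324 genes lower in Mono, of which 1 was in no Mono cell. The shares of all kept genes are not given here, and uncalled genes such as Actb, Actg1 and Adam10 were also in every Gran-1 cell.

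Cd63, a tetraspanin of primary granule membranes, was the gene in which most Gran-1 cells exceeded every Mono cell among the leading genes, 8 of 9. Its levels were 0, 7.15 and 10.40 in Mono and 12.30, 11.70, 11.68, 11.54, 10.85, 10.84, 10.76, 10.71 and 9.58 in Gran-1, a difference of −5.28. Vcam1, an adhesion molecule that binds integrin alpha 4 beta 1, was detected in 3 of 32 Mono cells (9.38%, exact 95% interval 1.98% to 25%) and in 7 of 9 Gran-1 cells (77.8%, 40% to 97.2%). The 7 cells had 9.50, 7.44, 7.40, 7.04, 6.63, 6.14 and 6.11, and the difference was −5.09. Ceacam1, a surface glycoprotein of maturing granulocytes, differed by −4.20, and Itgb2, the CD18 chain of leukocyte integrins, by −3.76 with detection in 14 of 32 Mono and 9 of 9 Gran-1 cells. These intervals cover counting error only.

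Granule genes did not move as a block. Of 13 primary granule genes listed, 12 were kept: 2 were higher in Mono by 2 or more, 1 was lower, and the list median was −0.86, against −0.18 for all kept genes. The lower one was Cd63, and the higher ones were the lysozymes Lyz2 (3.56) and Lyz1 (2.97), near-identical neighbours whose reads cannot be divided with certainty. Lyz2 ran over 0, 8.05 and 11.06 in Mono, against 7.85, 7.36, 7.33, 5.61, 3.28, 1.78 and 3 at 0 in Gran-1. The abundant peroxidase and proteases were detected in every cell and somewhat lower in Mono: Mpo had 13.56 ± 0.83 in Mono (SD, n = 32 cells) and 14.39 ± 0.39 in Gran-1 (SD, n = 9 cells). Elane, neutrophil elastase, had 13.90 ± 0.71 in Mono and 14.79 ± 0.39 in Gran-1, and Prtn3 differed by −0.20. The summed TPM of the list had a median of 47071 in Mono and 78801 in Gran-1. Serpinb1a, an inhibitor of these proteases, differed by −1.92, and Srgn, the proteoglycan that packs granule contents, by −1.47.

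Of 16 genes listed for secondary and tertiary granules, 8 were kept, with a median of −1.37. Of these, 3 lay past −2. They were Lcn2, the iron-binding lipocalin, at −2.95, and S100a8 and S100a9, whose calprotectin is mainly cytosolic. Mmp8, known as neutrophil collagenase, went the other way by 4.95, with detection in 30 of 32 Mono cells (0, 8.14 and 9.85) against 7.08, 6.07, 4.77, 3.15, 0.58 and 4 at 0 in Gran-1. It was among the leading genes of Mono, and 21 Mono cells exceeded every Gran-1 cell. Other genes of this list were missing, 6 of the 16 from every cell. Ltf, lactoferrin, and Ngp were detected in 0 of 32 Mono and 0 of 9 Gran-1 cells, counts that leave room for 9.38% of Mono and 33.3% of Gran-1 cells, and Camp in 1 Mono cell and 0 Gran-1 cells.

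Some single regulators also differed between the states. Of 13 granulocyte transcription factors listed 11 were kept, 3 lower in Mono by 2 or more, 0 higher, with a median of −0.26. All kept genes had a median of −0.18, with 4.29% lower by 2 or more and 1.35% higher. The median of the list thus lay near that of all kept genes. Beside Gfi1, Per3, a circadian regulator, differed by −3.17 (16 of 32 Mono cells, 9 of 9 Gran-1 cells), and Cebpe, the factor needed for secondary granules, by −2.48 (13 of 32 and 8 of 9). Cebpa (0.44), Spi1, which encodes PU.1 (0.49), and Runx1 (0.11) were close between the states. Of 15 monocyte and dendritic factors 6 were kept, with Irf8 and Klf4 higher and Irf5 lower at −2.09. Their median of 0.90 was 0.19 without Gran-1 cell 4, 0.23 without cell 20, 0.37 without cell 58 and 0.59 without cell 63. The detection filter was applied again each time, so the members kept could differ. Irf5 was within −2 when any 1 of 3 Gran-1 cells was left out, at −1.50 for the nearest to 0.

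The list of genes described as repressed by Gfi1 overlapped these factors. Of 15, 9 were kept, 2 of them higher in Mono by 2 or more (Irf8 and Klf4) and 0 lower. The others lay on both sides, from Csf1r, the receptor of the monocyte growth factor M-CSF, at 1.58 to Egr1 at −1.77 and Hoxa9 just inside the limit of −2. The median of 0.90 was −0.24 without Gran-1 cell 46 and −0.18 without Gran-1 cell 63. The detection filter was applied again each time, so the members kept could change. Irf8, Klf4, Csf1r, Zeb2 and Bax, the 5 positive members of the 9, stayed above 0 in every setting that kept them. The falls below 0 thus came with a change in the members kept.

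Monocyte progenitor genes were the list farthest towards Mono. Of 25 listed, 16 were kept. Of these, 8 were higher by 2 or more and 0 lower, against 1.35% and 4.29% of all kept genes. The median was 1.82 (1.0 with no filter beyond detection in 1 cell), against −0.18 for all kept genes. The 8 were Ctss, F13a1, Ly86, Ccr2, Ms4a6c, Pld4, Ms4a6b and Tifab (2.06, and 1.39 to 2.38 with 1 Gran-1 cell left out). All but Tifab were leading Mono genes, and the list was chosen with earlier results of these data known. Its rank is thus no separate result. The list was not uniform, since Cd14, the lipopolysaccharide co-receptor, differed by −1.88 and Clec12a by −1.29. Ly6c2, a surface marker of classical monocytes, was detected in every cell, at 12.57 ± 0.68 in Mono (SD, n = 32 cells) and 11.57 ± 1.22 in Gran-1 (SD, n = 9 cells). Csf1r itself was in 20 of 32 Mono and 2 of 9 Gran-1 cells.

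**Figure D3:**
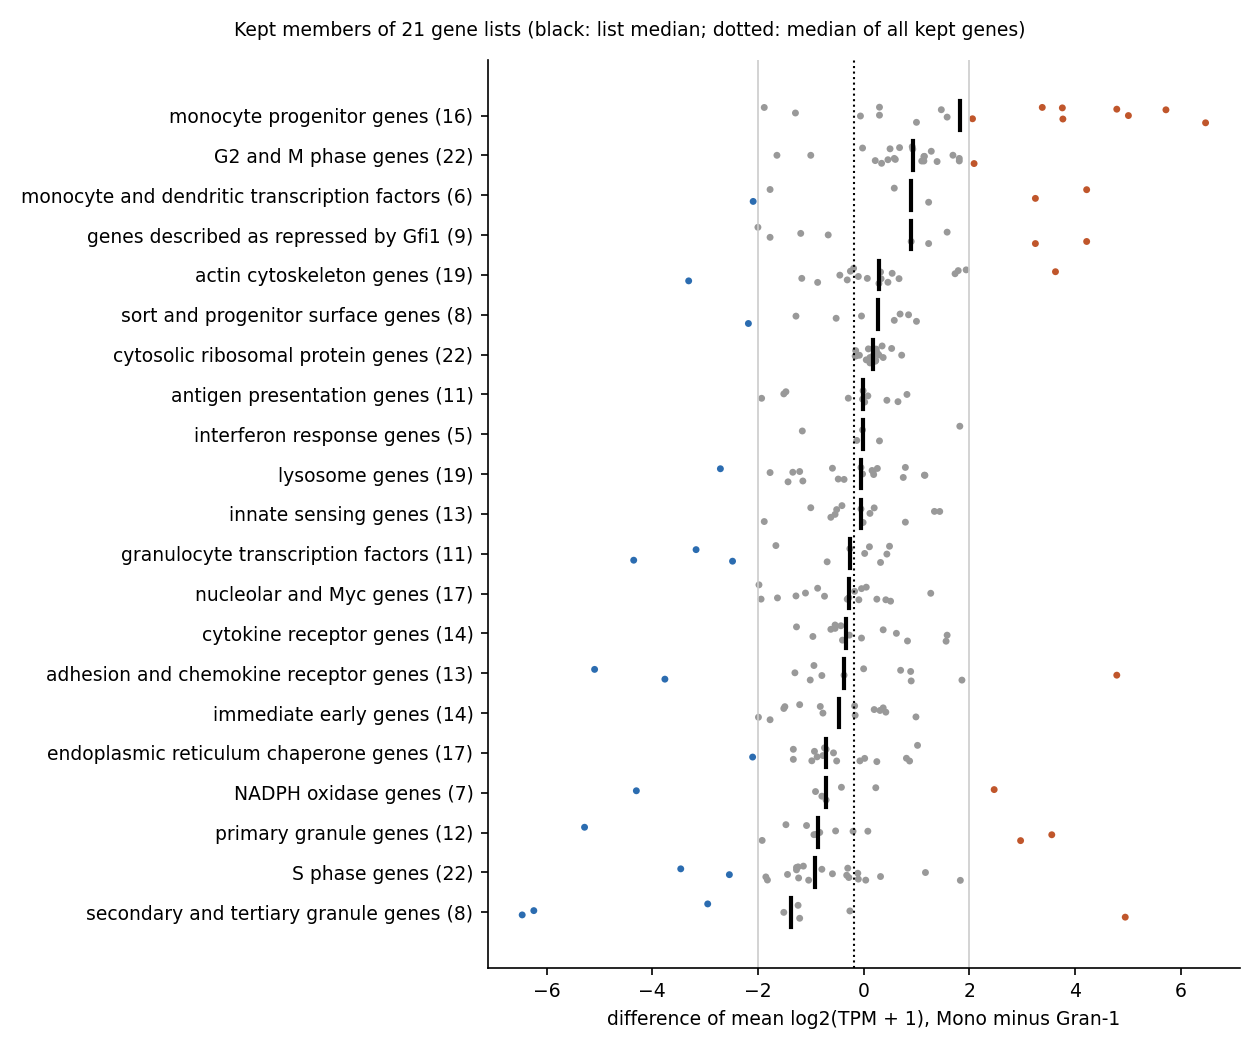
Each point is a kept member of a gene list (number kept in brackets), placed by its difference of mean log2(TPM + 1), Mono minus Gran-1; orange and blue points are past 2 and −2, black bars are list medians and the dotted line is the median of all kept genes, −0.18. Monocyte progenitor genes have a median of 1.82 and secondary and tertiary granule genes one of −1.37, with Mmp8 alone on its right at 4.95.

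Cell cycle lists parted. Of 22 genes of G2 and M phase, all kept, 19 were on the Mono side, with a median of 0.93; Bub1b, a spindle checkpoint kinase, was past the limit at 2.09, and it was past it in 1 of the 9 comparisons that left out a Gran-1 cell. Mki67, the proliferation antigen, differed by 1.81 and Ccnb1, cyclin B1, also by 1.81. Of 22 S phase genes, all kept, 18 were on the Gran-1 side, with a median of −0.91 and 2 past −2: Ccne2, cyclin E2, at −3.46 and Cdc45, a part of the replicative helicase, at −2.54. Mcm4 (−1.85), Mcm7 (−1.82) and Pcna (−1.04) were on the same side. Of all kept genes 41.8% were on the Mono side, with 1.35% past 2 and 4.29% past −2. With ratios of mean TPM the S phase median was −0.16, and Mcm4, Mcm7, Pcna and Cdc45 were at −0.17, −1.07, −0.12 and −0.87. The G2 and M median ran over 0.57 to 1.33 under the alternative settings. Per cell the lists overlapped, with mean levels of G2 and M genes of 3.61 ± 2.03 in Mono (SD, n = 32 cells) and 2.83 ± 1.49 in Gran-1 (SD, n = 9 cells), and of S phase genes of 5.13 ± 1.35 in Mono and 5.93 ± 0.95 in Gran-1.

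The NADPH oxidase, which makes superoxide in phagocytes, was divided within itself: Cybb, its catalytic subunit, was higher in Mono by 2.47, and Ncf4, the p40phox subunit, lower by 4.30 on the log2 scale, with detection in 21 of 32 Mono and 9 of 9 Gran-1 cells. The other 5 subunits lay between −0.91 and 0.23. The median of the 7 was −0.71, and it was 0.07 with Mono restricted to the 23 cells within the Gran-1 range of detected genes. Of 13 adhesion and chemokine receptor genes kept, Ccr2 was higher, Vcam1 and Itgb2 lower, with a median of −0.37. Anxa1, annexin A1, a calcium-dependent membrane protein abundant in neutrophils, was among the most abundant of the genes called lower in Mono, at 8.65 ± 2.27 in Mono (SD, n = 32 cells) and 11.96 ± 1.04 in Gran-1 (SD, n = 9 cells). It belonged to the actin cytoskeleton list, in which 1 of 19 kept genes was higher, 1 lower, and the median 0.29.

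Of the surface genes used to sort and describe such progenitors, Fcgr3, an Fc receptor, differed by −2.18, and it was within −2 under matching on detected genes. Kit (−0.04) and Cd34 (0.58) were close. Itgam, the gene of CD11b, was found in 3 of 32 Mono and 1 of 9 Gran-1 cells. Endoplasmic reticulum chaperone genes had a median of −0.71 over 17 kept, with Xbp1, a factor of secretory cells, at −2.10 and within −2 when any 1 of 3 Gran-1 cells was left out. Lysosome genes had a median of −0.05 over 19 kept. In the lists of cytokine receptor, antigen presentation, innate sensing, nucleolar and Myc, immediate early, interferon response and ribosomal protein genes, 0 members were past 2 in either direction, with medians between −0.47 and 0.18.

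Markers of other blood cells were examined in 9 lists. Of the basophil and mast cell list, Hdc, histidine decarboxylase, differed by −2.83 (26 of 32 Mono and 9 of 9 Gran-1 cells) and Mcpt8, a basophil protease, by −2.46 (11 of 32 and 6 of 9). Mcpt8 was within −2 when either of 2 Gran-1 cells was left out. The summed TPM of that list ran over 0, 207 and 1173 in Mono and 221, 473 and 2294 in Gran-1. Its members Cpa3 and Tpsb2 were detected in no cell of either state, and Fcer1a and Ms4a2 in at most 1 cell of each. Of the macrophage list, Vcam1 and Slc40a1, the iron exporter ferroportin (−2.48, in 5 of 32 and 5 of 9), were lower in Mono. Slc40a1 was within −2 when either of 2 Gran-1 cells was left out, at −1.85 for the nearest to 0. The summed TPM of its members ran over 0, 0 and 152 in Mono and 0, 131 and 725 in Gran-1, while its other 6 members in the table, among them C1qa, C1qb, Cd5l and Siglec1, were detected in none of the 41 cells. Of the stem and multilineage list 5 of 11 genes were kept, with a median of 0.58; Ifitm1, a leading Mono gene, was higher at 3.17, in 25 of 32 Mono and 3 of 9 Gran-1 cells. Cd79b, a B cell receptor chain and the 1 kept gene of its list, had 2.77 ± 3.26 in Mono (SD, n = 32 cells) and 4.38 ± 3.96 in Gran-1 (SD, n = 9 cells). The erythroid list had 1 kept gene and the dendritic list 2, with 0 past the limit, and of the megakaryocyte and eosinophil lists 0 genes were kept. Nkg7 was the 1 kept gene of the T and NK list, at 10.73 ± 2.21 in Mono (SD, n = 32 cells) and 12.52 ± 0.38 in Gran-1 (SD, n = 9 cells).

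Cells of both states held some of the other state's leading genes. Mono cells had a median of 17 of the 20 leading Mono genes (10 to 20) and 9 of the 20 leading Gran-1 genes (1 to 17). Gran-1 cells had 8 of the leading Mono genes (2 to 13) and 19 of the leading Gran-1 genes (18 to 20). The genes were chosen on these cells, which fixes the order of the counts and favours a high count of its own genes in each state. Gran-1 cells that took no part in the choice had 12 and 15 of the leading Gran-1 genes in the late July GMP runs, and 11 to 16 in CD11b+ GMP-P. Cells of other names held as many: CD11b+ Mono cells had 11 to 18 of them, and MP cells of the R412X-GMP run 6 to 15. Cells of that run named cMoP had fewer, 6 to 8. Outside the cells of the choice, these counts thus did not set Gran-1 apart from CD11b+ Mono or MP cells. All 3 CD11b+ Gran-1 and the 2 late July cells had more leading Gran-1 than leading Mono genes. So did 3 of 6 CD11b+ Mono, 6 of 11 MP and 0 of 5 cMoP cells. Of the 32 Mono cells, 29 had more of their own genes, 2 (cells 7 and 18) had equal numbers, and 1 (cell 6) had 13 of the Mono genes and 17 of the Gran-1 genes. Cell 6 also had a mean level of 7.61 over the secondary and tertiary granule list, calprotectin genes included, where the Mono median was 2.86. Mono cell 16 had the highest such mean, 9.90, above the Gran-1 maximum of 7.47. The fewest leading genes of either kind were in the Mono cell with the fewest detected genes, cell 14, with 10 and 1 of them at 1951 genes.

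Irf8 and Gfi1 were found together in 24 of 32 Mono cells (75%, exact 95% interval 56.6% to 88.5%) and in 5 of 9 Gran-1 cells (55.6%, 21.2% to 86.3%). The remaining 8 Mono cells had Irf8 alone, and the remaining 4 Gran-1 cells Gfi1 alone. No cell lacked both. In 8 of the 32 Mono cells Gfi1 was the higher of the pair, as in 8 of 9 Gran-1 cells; Gran-1 cell 58 had Irf8 at 7.35 and Gfi1 at 7.11. Irf8 minus Gfi1 ran over −3.05, 3.26 and 9.83 in Mono and −9.56, −4.81 and 0.24 in Gran-1.

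**Figure D4:**
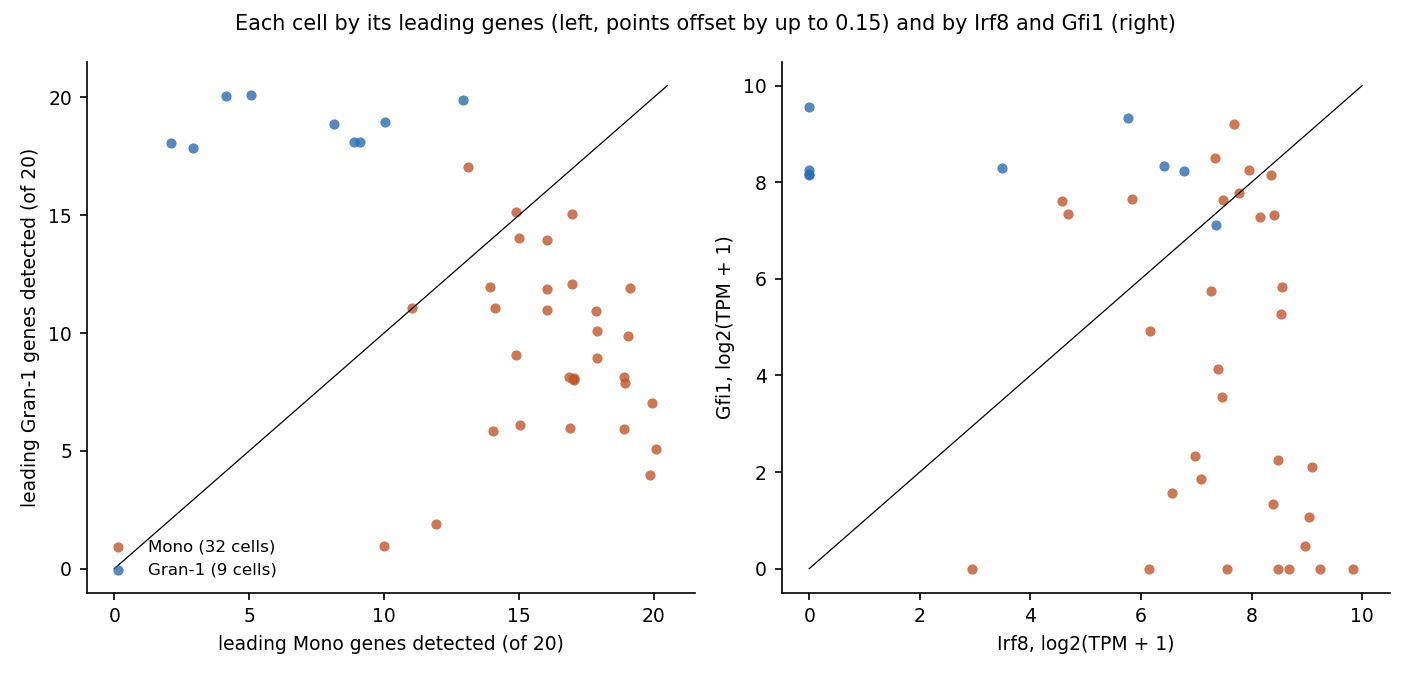
Left, each cell by how many of the 20 leading Mono genes (horizontal) and of the 20 leading Gran-1 genes (vertical) it held; right, its Irf8 (horizontal) and Gfi1 (vertical) levels in log2(TPM + 1). The genes were chosen on these cells, so the separation at left is fixed by the choice; Mono cells hold a median of 9 leading Gran-1 genes and Gran-1 cells 8 leading Mono genes, and 24 of 32 Mono cells carry both factors.

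The genes that followed each factor most closely over the 41 cells were taken by Spearman's rho, as a description; the cells share a run, and the contrast between states is part of each value. For Irf8 they were Btaf1 (rho 0.66), Ctss (0.62), H3f3a (0.58), S100a10 (0.57) and Lyz2 (0.55). Within the 32 Mono cells their rho was 0.61, 0.48, 0.57, 0.58 and 0.39 in that order. For Gfi1 they were Sun2 and Nkg7 (both 0.71), Ms4a3 (0.68), Pglyrp1 and Gpi1 (both 0.66), with 0.63, 0.59, 0.60, 0.49 and 0.50 within Mono. These genes had the highest rho of all kept genes over cells that include the 32 Mono cells. That choice favours high values over all cells and within Mono, so the values within Mono are no separate support. Sun2, a nuclear envelope protein, ran over 0, 1.37 and 6.61 in Mono and over 3.39, 5.43 and 6.64 in Gran-1. Ms4a3, which marks GMP and their progeny, was detected in every cell and differed by −1.08.

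Other states of the run sat between or beyond the pair. In the 11 cells named MP, Irf8 had 4.99 ± 3.03 and Gfi1 6.18 ± 3.55 (SD, n = 11 cells), and the cells had a median of 11 leading Mono and 12 leading Gran-1 genes. In the 5 cells named cMoP, Irf8 had 8.66 ± 0.56 and Ctss 8.36 ± 2.39 (SD, n = 5 cells), and S100a8 and S100a9 were at 0 in all 5. Cd63 had 0.39 ± 0.88 in cMoP (SD, n = 5 cells) and 9.03 ± 3.54 in MP (SD, n = 11 cells). Irf8 was thus ordered cMoP, Mono, MP, Gran-1 and Gfi1 in the order Gran-1, MP, cMoP, Mono, and in both orders neighbouring means differed by less than the larger SD of the pair.

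The same names were also given to 6 Mono and 3 Gran-1 cells of the CD11b+ GMP-P population, sorted from mice of the same genotype and carried on another run. These cells took no part in choosing the genes, though the authors named their states as well. Of the 20 leading Mono genes, 19 were higher in CD11b+ Mono than in CD11b+ Gran-1, with a median of 2.46 against 0.58 for all kept genes. Ctss had 6.18 in CD11b+ Mono and 0.42 in CD11b+ Gran-1, Ly86 5.40 and 0, and Ccr2 3.64 and 0. Mmp8 again lay on the Mono side, at 6.36 and 1.67, while Irf8 differed less, at 8.15 and 6.55, and Phf14 was the exception, at −1.55.

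The Gran-1 side did not recur in that way. Of the 20 leading Gran-1 genes, 7 were lower in CD11b+ Mono and 13 higher, with a median of 1.15. S100a8 (10.10 in CD11b+ Mono and 13.62 in CD11b+ Gran-1), S100a9 (7.64 and 12.33), Pglyrp1 (7.15 and 9.86), Ypel5 and Slc28a2 kept a difference of over 2 in the same direction. Gfi1 had 4.49 in CD11b+ Mono and 3.50 in CD11b+ Gran-1, Cd63 8.74 and 7.42, and Serpine2 4.74 and 2.02. Among all 324 genes called lower in the GMP run, 105 were lower in CD11b+ Mono (32.4%), near the 34.9% of all kept genes, and among the 102 called higher 67 were higher (65.7%), near the 62.6% of all kept genes. CD11b+ Gran-1 cells had a median of 3463 detected genes against 4434 in CD11b+ Mono; its part in these counts was not tested. Ngp, a secondary granule gene found in no Mono or Gran-1 cell of the GMP run, was present in both CD11b+ states. It had 7.45 in CD11b+ Mono and 10.46 in CD11b+ Gran-1.

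**Figure D5:**
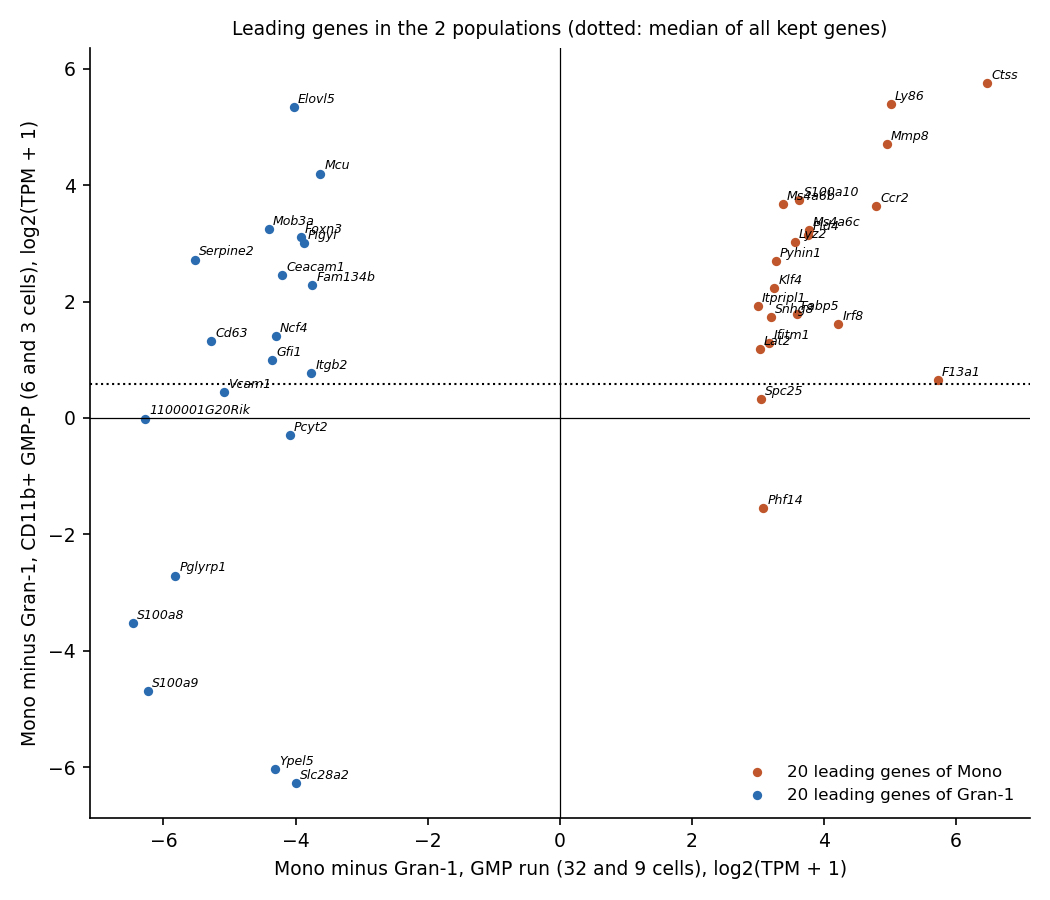
Each point is a leading gene, placed by its difference of mean log2(TPM + 1), Mono minus Gran-1, in the GMP run (horizontal, 32 and 9 cells) and in CD11b+ GMP-P (vertical, 6 and 3 cells); the dotted line is the median of all kept genes in CD11b+ GMP-P, 0.58. Of the leading Mono genes, 19 of 20 are above 0, and of the leading Gran-1 genes 7 of 20 are below it.

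A further 2 cells named Gran-1 came from the late July GMP runs. Their means were 13.83 for S100a8, 12.85 for S100a9, 10.75 for Cd63, 10.26 for Pglyrp1 and 8.52 for Gfi1, each detected in both cells, and 0.11 for Irf8, detected in neither. Serpine2 was lower in these cells than in the 9 Gran-1 cells of the R412X-GMP run, at 0.83 against 7.72, as was Foxn3, at 0.43 against 7.19. Both cells had more of the leading Gran-1 genes (12 and 15) than of the leading Mono genes (7 and 7).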

How the data were processed

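The deposited table of the authors holds log2 values of 23946 genes, and 2 to the power of the value minus 1 sums to 999517 to 1001449 per cell, as TPM does. The submitters' processing notes list RSEM, Bowtie2 and mm9, without versions. TPM keeps no depth, and 78.2% of the values in the 41 cells were 0. The authors' second deposited table, the other kind of value used here, gives each cell 1 of 12 state names; the labels do not say how these were assigned. Genes detected (TPM of at least 1) in 20% of cells, averaged over Mono and Gran-1, were kept, and differences of mean log2(TPM + 1), pseudocount 1, of 2 or more were called. This scale understates differences of low genes. No test was run, since each state is 1 sample. Shares carry exact Clopper-Pearson 95% intervals, and a share of 0 the limit set by 3 cells. Of the kept genes, 7516 matched a RefSeq symbol or synonym. Named genes are the 5 markers, the surface genes, up to 6 members of each of 21 lists by size of difference, 20 leading genes per direction (detected in 50% of the higher state's cells) and 5 genes most like Irf8 and Gfi1. Mpo, Elane, Prtn3, Cebpa, Runx1, Pcna, Tifab, Clec12a, Ltf, Ngp, Camp and the markers of the 9 lists of other cell types were named outside that rule, after their values were seen. Members and lists were chosen with earlier results of these data known. The calculation was tested on simulated data from genes above 0 in most cells, with a constant shift well past the limit. That test does not cover genes with many 0 values. Python 3.11.15, pandas 2.3.3, numpy 2.4.6, scipy 1.17.1 and matplotlib 3.10.9 were used.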

Additional observations from a re-analysis of the deposited data

Results flagged for a closer look

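Among 23 sets of per-cell values of the 9 Gran-1 cells, 1 had a cell far from the others, where chance alone gives about 1 in 20. Gran-1 cell 4 had a mean log2(TPM + 1) of 3.60 over nucleolar and Myc genes, against 5.43 for the next lowest cell and a Gran-1 median of 5.97. The same cell had the lowest Gran-1 means of S phase genes (4.05) and of G2 and M phase genes (0.45). Its mean over the secondary and tertiary granule list, calprotectin genes included, was the highest of the Gran-1 cells (7.47). It had 4289 detected genes, and its 20 most abundant genes took 21.5% of its TPM, the highest share of the 9 cells. The part of these values in the low mean was not tested.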

How the results depend on the processing

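Counts of genes past 2 depended on the scale. With pseudocounts of 0.1 and 10 TPM, 365 and 11 genes were higher in Mono and 1002 and 31 lower; a pseudocount compresses low values by construction. A detection filter of 50% of cells left 59 higher, log2 ratios of mean TPM gave 713, of which 54 were among the 102, and Mono cells matched on detected genes gave 168, of which 90 were. Adding the late July Gran-1 cells left 205 lower. Leaving out each Gran-1 cell gave 98 to 139 higher and 352 to 418 lower, with 62 and 157 called every time. The monocyte progenitor median was 1.0 with no filter and 2.91 at the 50% filter, which fewer genes pass, and the interferon response median 1.82 at the 50% filter and 1.42 with ratios of mean TPM. The Gfi1-repressed median, 0.90, was −0.02 with no filter and ran over −0.24 to 0.93 with 1 Gran-1 cell left out. It was below 0 without cell 46 or cell 63 and 0.13 or less without cells 4, 20, 33, 58 or 62. The detection filter was applied again for each cell left out, so these medians also reflect changes in the members kept. Of the 306 kept genes followed, 0 of the called ones changed sign under those of the 18 alternatives that kept them. All 40 leading genes were past 2 with any 1 Gran-1 cell left out, which their choice as the largest differences of these cells favours. Of the 40, 11 were not past 2 at a pseudocount of 10 TPM and 9, Gfi1 among them, were not with ratios of mean TPM. The causes were not tested. Depth is unknown, and 9 cells of 1 run limit every Gran-1 value.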
